A study of Mus musculus with 36 samples.

Results

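The genes described here are 8 mouse genes of β-adrenergic lipolysis, which were *Adrb1*, *Adrb3*, *Pnpla2*, *Lipe*, *Mgll*, *Abhd5*, *G0s2* and *Pde3b*. They were chosen by gene symbol, and 8 of 8 were found among the 54347 genes of the table. Expression was measured by RNA sequencing in primary cells of male mice, which were adipocytes, macrophages, skeletal myotubes and hepatocytes. Each cell type was exposed for 6 h to PBS as control, to 5 mM bOHB, a ketone body given as the sodium salt of (R)-3-hydroxybutyric acid, or to 5 mM butyrate, a histone deacetylase inhibitor of the short-chain fatty acids, given as the sodium salt of butyric acid, with 3 libraries in each of the 12 groups. The study asked whether bOHB regulates genes in cell types proposed as its targets, and butyrate is the same acid without the hydroxyl group.

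Lipolysis is the stepwise release of fatty acids from stored triglyceride, and in fat cells it is switched on by catecholamines. β-adrenergic receptors act through a stimulatory G protein on adenylyl cyclase, cAMP activates protein kinase A, and the kinase phosphorylates perilipin 1 and hormone-sensitive lipase at the lipid droplet. Adipose triglyceride lipase (ATGL, encoded by *Pnpla2*) removes the first fatty acid, hormone-sensitive lipase (*Lipe*) acts on diglyceride, and monoglyceride lipase (*Mgll*) releases the last fatty acid and glycerol. *Abhd5* encodes the coactivator of ATGL, *G0s2* its inhibitor, and *Pde3b* the phosphodiesterase that breaks down cAMP in response to insulin.

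The adipocytes were differentiated in culture from stromal cells of inguinal fat pooled from several mice, with isobutylmethylxanthine, dexamethasone, insulin and rosiglitazone, and differentiation was judged by eye. Macrophages were grown from bone marrow in L929-conditioned medium, myotubes from hindlimb myoblasts, and hepatocytes were isolated by collagenase perfusion and kept overnight without dexamethasone. The mice were C57Bl/6, of which the study's methods give C57BL/6NHsd for the hepatocytes and C57BL/6N for some primary cells that they do not name. Cell type and substrain thus cannot be told apart for the hepatocytes, and for the other cell types the substrain is not fully given. Adipocytes and macrophages were treated in the same medium and the myotubes and hepatocytes each in another. Cell type and medium cannot be told apart where the medium differed, and age was not given in the labels. The labels do not say whether the 3 libraries of a group came from separate cultures or animals, so the p-values measure the spread between these libraries only. A library held 18366289 to 23221473 estimated counts in total, and values are given in the usual CPM unit, the counts of a gene relative to the library total after edgeR's TMM scaling.

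Each cell type held the markers of its label in the control libraries. The summed level of 9 adipocyte markers was 9450 to 10300 CPM in adipocyte controls and 26.5 to 122 CPM in the controls of the other cell types. Fibroblast or preadipocyte markers (6 genes) summed to 3650 to 4240 CPM in adipocyte, 1420 to 1520 CPM in macrophage, 794 to 945 CPM in myotube and 46.2 to 50.3 CPM in hepatocyte controls. Some markers moved with the treatment. Under butyrate, 61.0% of all genes tested passed edgeR's test in adipocytes, 65.0% in macrophages, 66.5% in myotubes and 63.5% in hepatocytes. Under bOHB 2.91% passed in myotubes, and the counts of markers are to be read against these shares. In adipocytes, the adipocyte markers summed to 7380 to 9070 CPM under butyrate, where 4 of 9 fell (*Adipoq*, *Plin1*, *Cidec* and *Pparg*) and 1 rose (*Slc2a4*), 6 macrophage markers summed to 282 to 334 CPM in controls and 247 to 272 CPM under butyrate, and 5 endothelial markers, of which 3 fell, to 180 to 206 and 119 to 138 CPM. Of the 6 fibroblast or preadipocyte markers, *Pdgfra* (-0.85) and *Pdgfrb* (-1.59) fell and *Thy1* (0.44) rose in adipocytes, with a sum of 3160 to 4250 CPM under butyrate, and 3 of 6 rose in myotubes. In hepatocytes 3 of 9 adipocyte markers rose and 1 fell, from a sum of 26.5 to 28.4 CPM to 33.2 to 36.5 CPM. There 1 of 7 myotube markers rose and 1 fell, from a sum of 29.2 to 29.6 CPM to 44.8 to 49.8 CPM. Of the 6 fibroblast or preadipocyte markers 1 rose and 2 fell in hepatocytes, from a sum of 46.2 to 50.3 CPM to 36.4 to 40.9 CPM. In myotubes, 3 of 7 myotube markers fell under butyrate, from a sum of 24200 to 29600 CPM to 15900 to 21300 CPM. There, the 6 macrophage markers summed to 105 to 271 CPM in controls, 42.2 to 104 CPM under bOHB and 15.5 to 68.5 CPM under butyrate. Libraries of butyrate-treated myotubes also held hepatocyte transcripts, since 6 hepatocyte markers summed to 31.6, 559 and 131 CPM there and to at most 0.044 CPM in the myotube controls. Under bOHB they summed to 0.0918, 0 and 24.1 CPM in myotubes, where 1 of 6 rose. In macrophages, 3 of 6 macrophage markers fell under butyrate, from a sum of 17000 to 17100 CPM to 10500 to 11100 CPM, and 7 of 7 myotube markers rose, from 7.33 to 14.8 CPM to 22.1 to 64.8 CPM. Of 5 endothelial markers 3 fell there, from a sum of 130 to 153 CPM to 86.3 to 94.8 CPM. The part of these shifts in the results below was not tested, and in bulk samples fewer cells of a type and less RNA per cell cannot be told apart.

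RefSeq promoter windows (GRCm38.p6, from 250 bases before to 50 bases after an annotated start) were at hand for 6 of the 8 genes. The 100 bases before the start are printed because *Pnpla2*, *Lipe*, *Mgll* and *Abhd5* moved in the same direction as each other under butyrate in adipocytes, myotubes and hepatocytes, whereas *G0s2* fell in these 3 cell types and *Adrb1* rose in adipocytes. By GENCODE M21 on GRCm38, *Pnpla2* spans chr7:141455198-141460743 and *Pde3b* chr7:114415281-114539251 on the plus strand, and *Lipe* spans chr7:25379527-25398710 on the minus strand. *Mgll* spans chr6:88724412-88828360, *Abhd5* chr9:122351608-122381524 and *Adrb1* chr19:56722199-56733113, all on the plus strand. *Adrb3* spans chr8:27225776-27250616 and *G0s2* chr1:193272161-193273217, both on the minus strand. Sequences run 5′ to 3′ on the strand of the gene. Capitals mark any of 5 motifs, each searched on both strands. The GC box was searched as GGGCGG and the cAMP-response motif as TGACG. The promoter boxes searched beside them were the TATA box, with the letters TATAAA, and the E box, with the letters CACGTG. The fifth motif was the CCAAT box.
Pnpla2, chr7:141455088-141455187, plus strand: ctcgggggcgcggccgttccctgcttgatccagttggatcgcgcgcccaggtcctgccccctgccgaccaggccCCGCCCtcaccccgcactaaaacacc
Lipe, upstream start, chr7:25395988-25396087, minus strand: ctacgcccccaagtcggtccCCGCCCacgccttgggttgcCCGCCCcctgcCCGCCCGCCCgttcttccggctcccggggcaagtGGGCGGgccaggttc
Lipe, downstream start, chr7:25390113-25390212, minus strand: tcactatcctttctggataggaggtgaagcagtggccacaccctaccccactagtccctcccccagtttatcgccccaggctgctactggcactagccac
Mgll, upstream start, chr6:88724312-88724411, plus strand: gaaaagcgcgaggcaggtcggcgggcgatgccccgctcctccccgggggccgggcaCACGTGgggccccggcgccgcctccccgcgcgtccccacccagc
Abhd5, chr9:122351516-122351615, plus strand: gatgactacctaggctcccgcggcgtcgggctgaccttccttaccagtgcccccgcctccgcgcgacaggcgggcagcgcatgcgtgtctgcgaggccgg
G0s2, chr1:193273189-193273288, minus strand: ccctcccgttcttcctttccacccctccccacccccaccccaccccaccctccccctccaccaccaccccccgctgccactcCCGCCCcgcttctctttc
Adrb1, chr19:56722017-56722116, plus strand: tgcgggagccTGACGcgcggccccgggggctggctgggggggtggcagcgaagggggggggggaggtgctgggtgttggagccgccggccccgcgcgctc
In the full windows of 300 bases, the upstream *Lipe* start held 6 GC boxes, of which a pair overlapped each other, and the downstream *Lipe* start held 0. *Pnpla2* held 2 GC boxes, and *Abhd5*, *G0s2*, *Adrb1* and each of the 2 *Mgll* starts held 1. A GC box was present in 35.7% of all 32851 windows. TGACG was present in the windows of *Abhd5*, *G0s2*, *Adrb1* and the downstream *Mgll* start and in 20.8% of all windows. The CCAAT box was present in the *Adrb1* window and in 37.4% of all windows, the E box in the upstream windows of *Lipe* and *Mgll* and in 7.15%, and the TATA box in none of the member windows and in 13.6%. These matches describe the letters of these windows only.

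The levels of all 8 genes were highest in adipocytes. In controls, all 8 were higher in adipocytes than in macrophages, where 77.5% of the 15340 genes tested differed, than in myotubes (78.2% differed) and than in hepatocytes (81.1% differed). Of these genes, 6075 were higher in adipocytes than in macrophages, 5986 than in myotubes and 6346 than in hepatocytes. Genes above 1 CPM in at least 6 libraries were tested. Among controls, *Adrb1* and *Adrb3* exceeded 1 CPM in adipocytes only, so this filter favoured that direction for both. *Adrb3*, the β-adrenergic receptor typical of rodent fat cells, had the widest range. It was at 292, 356 and 328 CPM in adipocyte controls, and at 0.690 to 0.861 CPM in hepatocytes, 0.088 to 0.176 CPM in myotubes and 0.0504 to 0.212 CPM in macrophages. Outside adipocytes these values rest on 1 to 14 counts per library, and the myotube and macrophage ranges overlap. *Lipe* was at 771, 731 and 717 CPM in adipocyte controls, followed by macrophages (15.5 to 16.4 CPM), hepatocytes (10.1 to 12.1 CPM) and myotubes (4.27 to 5.06 CPM), and no neighbouring ranges overlapped. *Adrb1* was low everywhere, at 1.69 to 1.85 CPM in adipocytes and at 0 to 2 counts per library in the controls of the other cell types, whose ranges overlap.

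*Pnpla2* reached 1510 ± 63.6 CPM (SD, n = 3) in adipocyte controls, 114 ± 7.10 in hepatocytes, 104 ± 3.54 in macrophages and 72.2 ± 3.54 in myotubes, and the hepatocyte and macrophage ranges overlapped. *Abhd5* had the narrowest span, from 243 ± 8.83 CPM in adipocytes to 44.1 ± 1.37 CPM in myotubes, and hepatocytes (67.8 ± 1.96) and macrophages (67.0 ± 0.994) overlapped. *Mgll* was at 355 ± 14.0 CPM in adipocytes, 32.1 ± 2.42 in myotubes, 25.2 ± 1.98 in hepatocytes and 9.31 ± 0.0631 in macrophages. Its neighbouring ranges did not overlap. *G0s2* followed the same order of cell types as *Mgll*, at 216 ± 13.9, 6.42 ± 0.549, 5.02 ± 0.504 and 0.606 ± 0.0861 CPM, again without overlap. *Pde3b* was at 381 ± 41.6 CPM in adipocytes, 55.7 ± 0.985 in macrophages, 49.8 ± 4.53 in hepatocytes and 9.53 ± 1.65 in myotubes, and the macrophage and hepatocyte ranges overlapped. Per kilobase of merged exons, which allows levels of different genes to be compared, the order in adipocyte controls was *Pnpla2* (498 CPM per kb), *G0s2* (248), *Lipe* (126), *Adrb3* (96.3), *Mgll* (69.9), *Pde3b* (41.9), *Abhd5* (40.9) and *Adrb1* (0.524). With the length of the longest transcript instead, *Lipe* was at 199 and *Abhd5* at 77.1 CPM per kb, the latter then above *Pde3b* (58.0), and 70 of 96 levels moved by more than 1 SD. *G0s2* thus stood above *Abhd5* in adipocytes, while in macrophage controls *Abhd5* (11.2 CPM per kb) stood above *G0s2* (0.696).

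**Figure D1:**
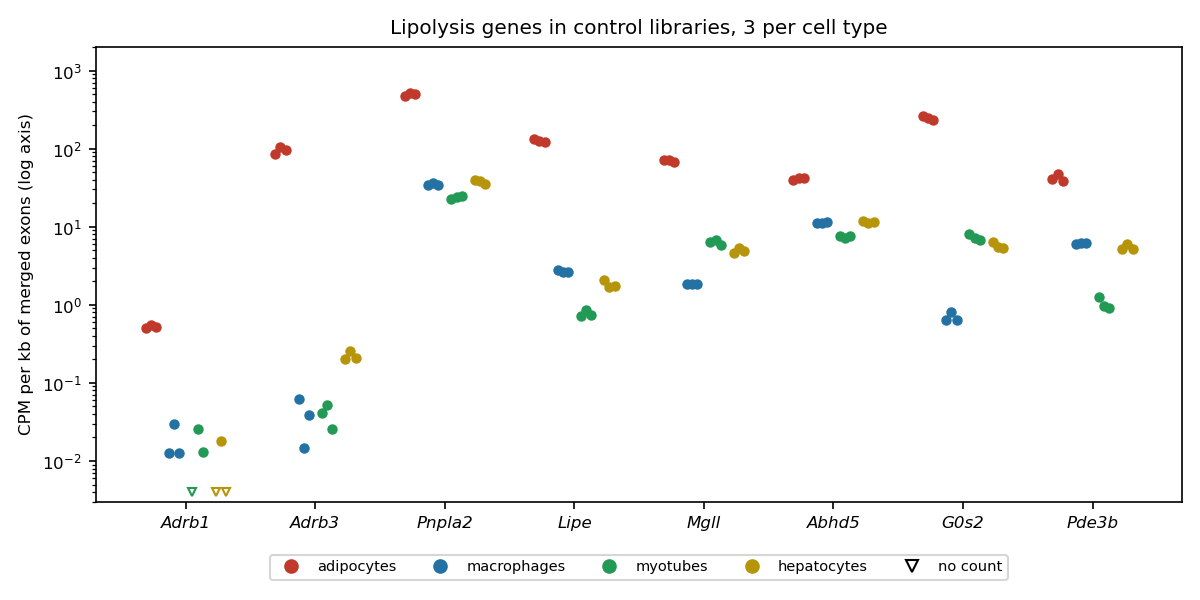
Level of each gene in CPM per kilobase of merged exons (log axis) in the 3 control libraries of each cell type, with open triangles for libraries without a count. Adipocytes stand above the other cell types for all 8 genes, from 0.524 CPM per kb for *Adrb1* to 498 for *Pnpla2*.

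Butyrate lowered 7 of the 8 genes in adipocytes and raised *Adrb1*, so 8 of 8 passed the test, in a comparison where 61.0% of all genes tested did. The median log2 fold change of the 8 genes was -0.61, and that of all genes tested was 0. For none of the 8 did the butyrate and control libraries overlap, and the share of all genes without overlap was not computed. The plot of levels in adipocytes shows each library.

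**Figure D2:**
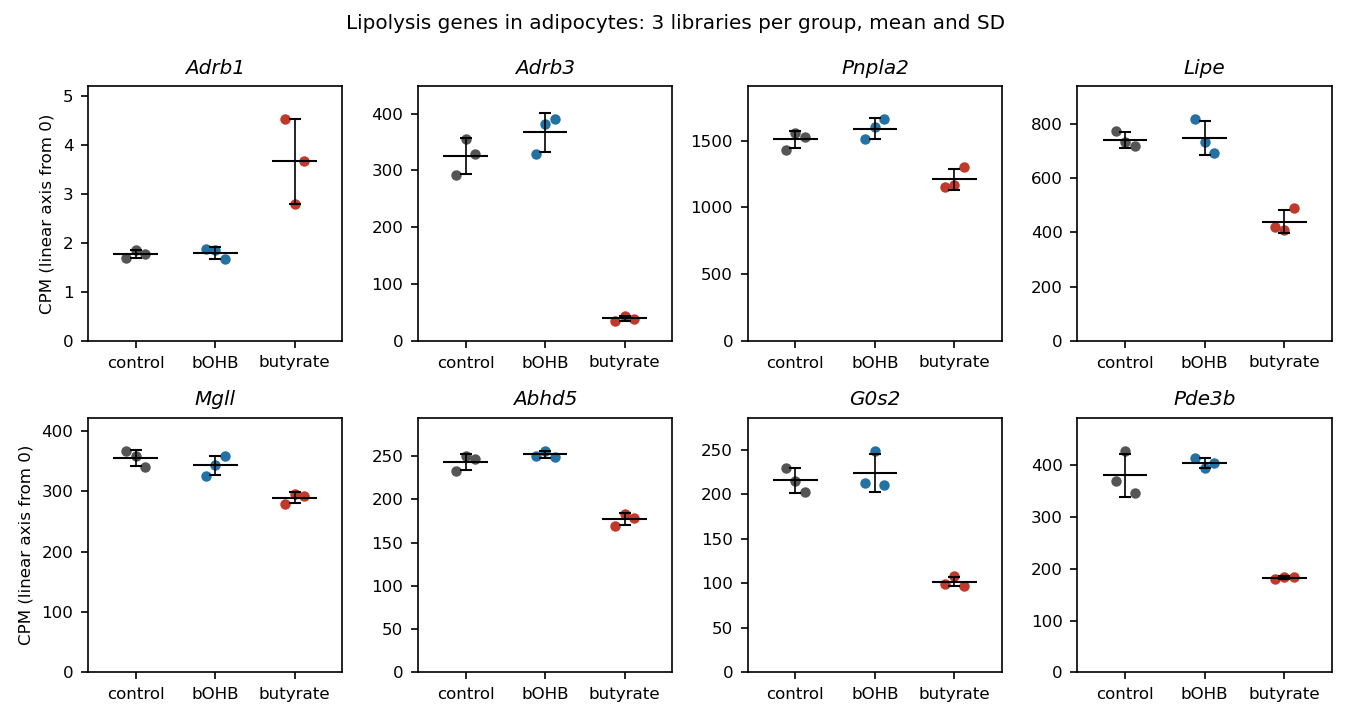
CPM of the 8 genes (linear axes from 0) in adipocytes under control, bOHB and butyrate, with 3 libraries per group as points and the mean and SD as bars. Butyrate libraries lie apart from both other groups for every gene, below them except for *Adrb1*, which reached 2.80 to 4.53 CPM.

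Both receptors among the 8 genes changed, in opposite directions. *Adrb3* was at 292, 356 and 328 CPM in controls and at 35.5, 44.5 and 38.5 CPM under butyrate. The highest butyrate library was thus far below the lowest control, and the mean fell 8.21-fold (log2 fold change -3.04 ± 0.08 SE, adjusted p = 1.13e-22). *Gm45470*, which overlaps *Adrb3* on the opposite strand, was at 4.63 CPM in controls and 4.61 CPM under butyrate (adjusted p = 1). *Adrb1* was at 1.69, 1.85 and 1.77 CPM in controls and at 4.53, 2.80 and 3.68 CPM under butyrate, or 39 to 43 and 68 to 92 counts. All butyrate libraries were above all controls, with a 2.06-fold rise (log2 fold change 1.04 ± 0.23 SE, adjusted p = 0.000221).

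The lipases fell by smaller amounts. *Lipe* was at 771, 731 and 717 CPM in adipocyte controls and at 420, 408 and 488 CPM under butyrate, a 1.68-fold decrease (log2 fold change -0.75 ± 0.08 SE, adjusted p = 7.61e-10). *Pnpla2* was at 1430, 1560 and 1530 CPM in controls and at 1150, 1170 and 1300 CPM under butyrate, a 1.25-fold decrease (-0.32 ± 0.07 SE, adjusted p = 8.67e-05). The *Lipe* groups lay further apart than the *Pnpla2* groups, and neither pair overlapped. *Mgll* was at 367, 358 and 340 CPM in controls and 279, 296 and 292 CPM under butyrate, which was the smallest change of the 8 (1.23-fold lower, log2 fold change -0.30 ± 0.08 SE, adjusted p = 0.0016).

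The regulators of ATGL and of cAMP fell as well. *Abhd5*, the coactivator of ATGL, went from 233, 250 and 247 CPM to 169, 183 and 178 CPM, a 1.38-fold decrease (log2 fold change -0.46 ± 0.05 SE, adjusted p = 2.33e-09). *G0s2*, the inhibitor of ATGL, went from 230, 215 and 203 CPM to 99.4, 108 and 97.6 CPM, a 2.13-fold decrease (-1.09 ± 0.09 SE, adjusted p = 1.51e-11). The butyrate libraries of *G0s2* were thus at no more than 108 CPM, while no control was below 203 CPM. *Lamb3*, a protein-coding gene that overlaps *G0s2* on the opposite strand, was at 12.2 CPM in controls and 15.4 CPM under butyrate (adjusted p = 0.0524). *Pde3b* went from 370, 428 and 347 CPM to 180, 185 and 184 CPM, a 2.08-fold decrease (-1.06 ± 0.09 SE, adjusted p = 3.34e-11), with the 3 butyrate libraries close together and below all controls.

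Other genes of the pathway moved in both directions under butyrate in adipocytes, where 61.0% of all genes passed the test. The share of each list that passed is to be read against that background, and the phosphodiesterases (10 of 16) and partners (17 of 27) were near it. Of 29 genes of lipolysis signalling (other receptors, G proteins, adenylyl cyclases and protein kinase A), 9 rose and 12 fell, with a median log2 fold change of -0.10. The adenylyl cyclases *Adcy5* (170 ± 6.02 to 60.7 ± 2.32 CPM) and *Adcy6* (137 ± 3.62 to 58.4 ± 1.38 CPM) fell, with log2 fold changes of -1.48 and -1.23. *Adcy9* rose from 10.7 ± 1.05 to 21.7 ± 0.253 CPM, and the inhibitory G protein *Gnai2* rose from 214 ± 8.96 to 319 ± 12.7 CPM. Of 16 other cyclic nucleotide phosphodiesterases tested (of 17 listed), 5 rose and 5 fell. *Pde3a*, the paralogue of *Pde3b*, fell from 73.6 ± 1.21 to 24.4 ± 2.77 CPM (log2 fold change -1.59), and *Pde4b* fell from 12.4 ± 1.18 to 5.16 ± 0.149 CPM (-1.27). *Pde4a* rose from 13.4 ± 0.748 to 19.5 ± 1.08 CPM (0.54), while *Pde9a*, which acts on cGMP, had 1 count in all controls together and 25 under butyrate, a ratio of 27.8 with an exact 95% counting interval of 4.56 to 1140.

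Among 27 lipolysis partners (lipid droplet proteins, other lipases, fatty acid and glycerol handling), 6 rose and 11 fell, with a median of -0.08. The droplet proteins *Plin4* (1230 ± 70.9 to 316 ± 16.9 CPM, log2 fold change -1.96) and *Plin1* (896 ± 36.3 to 375 ± 35.6 CPM, -1.26) fell. *Abhd6*, which hydrolyses monoglyceride, rose from 23.3 ± 2.38 to 49.4 ± 1.75 CPM (1.08), and *Hilpda*, which encodes another inhibitor of ATGL, rose from 11.8 ± 2.22 to 22.0 ± 0.996 CPM (0.90). Of 17 transcriptional regulators, 3 rose and 9 fell, with a median of -0.31. *Pparg*, the master regulator of fat cells, fell from 263 ± 2.57 to 136 ± 8.63 CPM (-0.95) and *Cebpd* from 24.9 ± 1.95 to 6.31 ± 0.503 CPM (-1.98), while *Foxo1* rose from 40.8 ± 0.317 to 123 ± 2.42 CPM (1.59) and *Ppard* from 49.5 ± 2.99 to 76.1 ± 1.61 CPM (0.62). *Plin1* and *Pparg* are also on the adipocyte marker list.

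Of 10 genes that cAMP is known to induce, 6 rose and 2 fell, where 61.0% of all genes passed in either direction, with a median log2 fold change of 0.75 against 0 over all genes tested. *Sik1* went from 16.9 ± 2.66 to 36.5 ± 1.52 CPM (1.11) and *Per1* from 15.5 ± 1.64 to 31.7 ± 4.37 CPM (1.03). The 2 that fell were *Crem*, from 11.2 ± 1.12 to 7.00 ± 0.392 CPM (-0.67), and *Pck1*, which encodes phosphoenolpyruvate carboxykinase, from 34.7 ± 4.68 to 3.56 ± 0.444 CPM (-3.28). The adjusted p-values of these 20 named genes ranged up to 0.000167 (*Pde9a*).

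**Figure D3:**
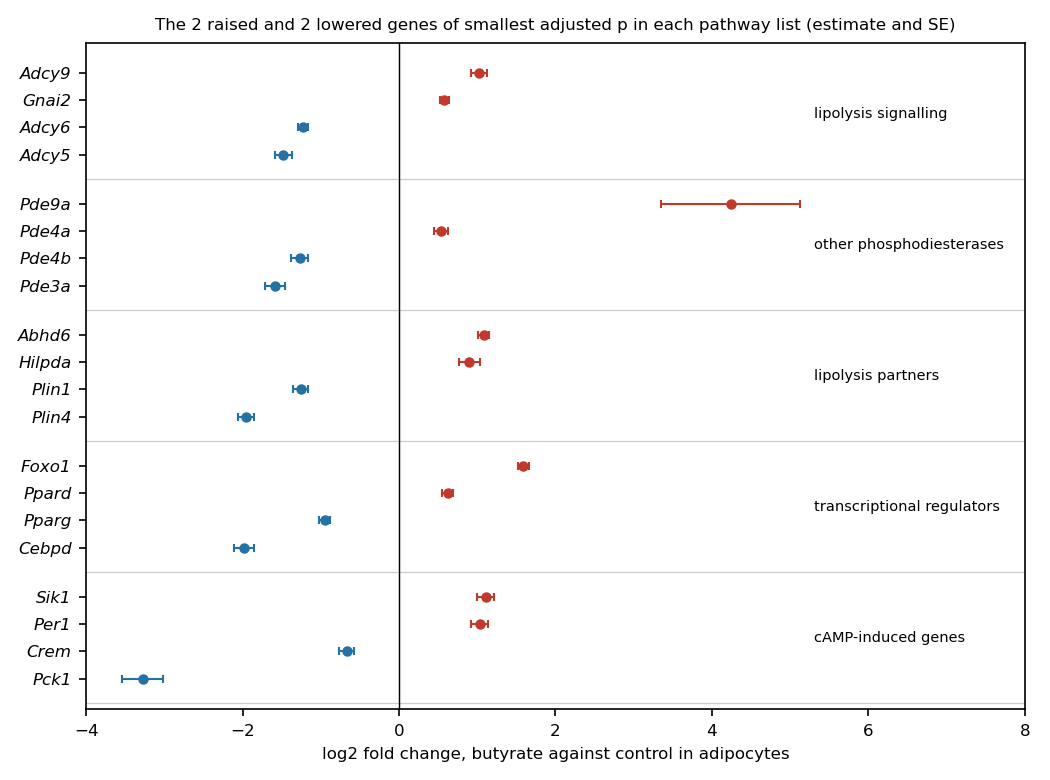
Log2 fold change of butyrate against control in adipocytes, with SE, for the 2 raised and 2 lowered genes of smallest adjusted p in each of 5 pathway lists. Every list holds genes of both directions, from -3.28 for *Pck1* to 4.24 for *Pde9a*, whose control level rests on 1 count.

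In myotubes butyrate raised 7 of the 8 genes and lowered *G0s2*, so again 8 of 8 passed the test, where 66.5% of all genes did. *Lipe* was at 4.27, 5.06 and 4.40 CPM in controls and at 10.7, 11.3 and 8.90 CPM under butyrate, a 2.25-fold rise (log2 fold change 1.17 ± 0.12 SE, adjusted p = 3.81e-10). *Pde3b* was at 11.4, 8.81 and 8.36 CPM in controls and at 17.1, 15.0 and 20.1 CPM under butyrate (0.87 ± 0.12 SE, adjusted p = 2.68e-07). *G0s2* was at 7.02, 6.30 and 5.94 CPM in controls and at 2.12, 1.54 and 1.21 CPM under butyrate, a 3.92-fold decrease (-1.97 ± 0.18 SE, adjusted p = 5.36e-11). The butyrate libraries of these 3 genes did not overlap the controls. *Mgll* (0.48), *Abhd5* (0.42) and *Pnpla2* (0.21, adjusted p = 0.00638) rose by less, and the *Pnpla2* call was lost when genes of low count were kept in the test (0.15, adjusted p = 0.213). *Adrb3* had 9 counts in the controls and 57 under butyrate, a ratio of 6.53 per library total (exact 95% counting interval 3.21 to 15.0, adjusted p = 1.98e-06). *Adrb1* had 3 counts in the controls and 82 under butyrate, a ratio of 28.2 (9.31 to 139, adjusted p = 4.04e-09). *Adrb1* and *Adrb3* passed the filter on low counts only with libraries of other cell types. When myotube libraries were filtered and fitted alone, the other 6 genes all passed, 5 upward and 1 downward. Without the butyrate library that held 559 CPM of hepatocyte markers 8 of 8 passed, with 31.6 and 131 CPM of these markers in the other butyrate libraries, and their part in the result was not tested.

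In hepatocytes the same genes rose and fell as in myotubes, and 8 of 8 passed the test, where 63.5% of all genes did. *Lipe* had the largest change of the genes above 1 CPM, from 12.1, 10.1 and 10.4 CPM in controls to 37.2, 35.8 and 38.4 CPM under butyrate, a 3.41-fold rise (log2 fold change 1.77 ± 0.10 SE, adjusted p = 6.06e-16). *G0s2* went from 5.58, 4.86 and 4.61 CPM to 2.33, 1.49 and 2.34 CPM, a 2.46-fold decrease (-1.30 ± 0.20 SE, adjusted p = 1.02e-06). In both genes the groups were fully apart. *Pde3b* (0.50), *Mgll* (0.33) and *Abhd5* (0.26) rose, as did *Pnpla2*, from 114 ± 7.10 to 131 ± 2.63 CPM (0.20, adjusted p = 0.0105). The *Pnpla2* call was lost without control replicate 3 (0.15, adjusted p = 0.0773) and when genes of low count were kept in the test (0.21, adjusted p = 0.0534). *Adrb3* went from 37 to 89 counts, a ratio of 2.22 (1.50 to 3.36, adjusted p = 0.000542), and *Adrb1* from 1 to 15 counts, a ratio of 13.9 (2.13 to 584, adjusted p = 0.00131). The single control count lay in replicate 2. In the fit of hepatocyte libraries alone, where *Adrb1* and *Adrb3* did not pass the filter on low counts, the other 6 genes all passed, 5 upward and 1 downward. Of 5 endothelial markers 4 fell in these libraries, from a sum of 64.8 to 72.4 CPM to 19.9 to 23.6 CPM.

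Macrophages showed a mixed pattern, in which 2 genes rose, 5 fell and *Adrb3* did not pass the test, where 65.0% of all genes did. *Pnpla2* was at 103, 108 and 102 CPM in controls and at 124, 131 and 125 CPM under butyrate (log2 fold change 0.28 ± 0.07 SE, adjusted p = 0.000498). *Mgll* was at 9.28, 9.27 and 9.39 CPM in controls and at 3.17, 4.56 and 4.02 CPM under butyrate, a 2.37-fold decrease (-1.24 ± 0.13 SE, adjusted p = 5.14e-10). Neither gene's groups overlapped. *Adrb1* went from 4 to 130 counts, a ratio of 34.9 (exact 95% counting interval 13.3 to 130, adjusted p = 8.33e-11). *G0s2* was at 13, 14 and 13 counts in controls and at 1, 5 and 10 counts under butyrate (log2 fold change -1.42 ± 0.45 SE, adjusted p = 0.00712). Its call was lost without butyrate replicate 1, which held 1 count (-0.94, adjusted p = 0.0639), and the estimate was -2.21 without butyrate replicate 3. *Pde3b* (-0.38), *Lipe* (-0.30) and *Abhd5* (-0.29) fell by TMM scaling. When library totals alone set the scale, the median of all genes moved by 0.202 and these 3 had changes of -0.16, -0.08 and -0.07 with adjusted p of 0.207, 0.492 and 0.251, so 4 of 8 genes then passed. *Lipe* in macrophages was also lost without butyrate replicate 1 (-0.19, adjusted p = 0.108). *Adrb3* was at 9 counts in the controls and 15 under butyrate (adjusted p = 0.371). In the fit of macrophage libraries alone, where *Adrb1*, *Adrb3* and *G0s2* did not pass the filter on low counts, the other 5 genes all passed, 1 upward and 4 downward.

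The difference between cell types was tested directly for the genes with a mean above 1 CPM in both controls, as the butyrate change in adipocytes minus that in the other cell type. These comparisons share the adipocyte libraries. Against myotubes 6 of 6 genes differed, where 36.8% of all genes did, and 5 of the 6 moved in opposite directions. *Lipe* differed by -1.92 (95% interval -2.21 to -1.64, adjusted p = 3.81e-12), *Pde3b* by -1.93 (-2.24 to -1.62) and *Abhd5* by -0.88 (-1.03 to -0.73). *G0s2* fell in both and differed by 0.88 (0.46 to 1.30, adjusted p = 0.00104), the fall in myotubes being the larger. Against hepatocytes 5 of 6 differed (41.4% of all genes), all of them with opposite directions, and *Lipe* had the largest difference, of -2.52 (-2.78 to -2.27, adjusted p = 5.51e-16). The fall of *G0s2* in hepatocytes and in adipocytes was not shown to differ (0.21, -0.24 to 0.66, adjusted p = 0.482). Against macrophages 4 of 5 differed (36.6% of all genes). *Pnpla2* differed by -0.60 with opposite directions, *Lipe* by -0.45 and *Pde3b* by -0.68 with the larger fall in adipocytes, and *Mgll* by 0.95 with the larger fall in macrophages. *Abhd5* did not pass (-0.17, -0.32 to -0.02, adjusted p = 0.0665), but passed with DESeq2 (adjusted p = 0.0389), with library totals alone (-0.30, 0.000973) and in the fit of these cell types alone (-0.20, 0.0154).

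**Figure D4:**
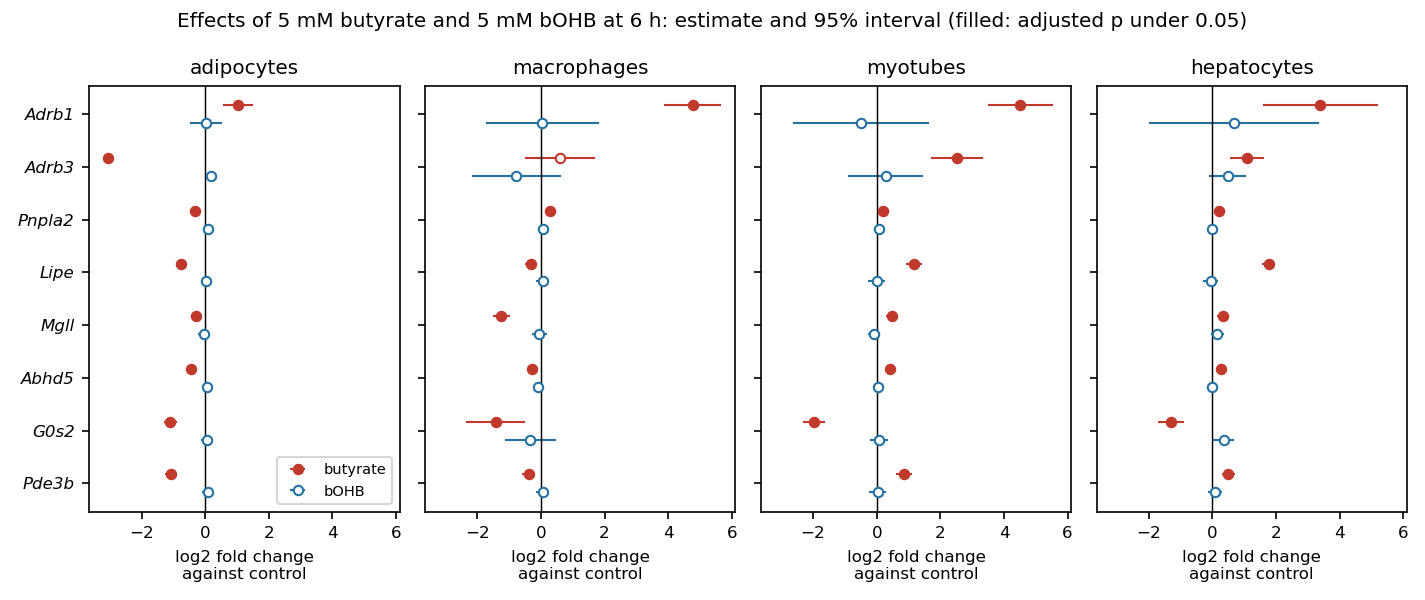
Log2 fold change against control with its 95% interval for the 8 genes in each cell type under butyrate (red) and bOHB (blue), filled where the adjusted p is under 0.05. *Lipe* and *Pde3b* lie left of 0 in adipocytes (-0.75 and -1.06) and right of 0 in myotubes (1.17 and 0.87) and hepatocytes (1.77 and 0.50) under butyrate, and all bOHB points are open.

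The coactivator and the inhibitor of ATGL can be compared within a library, where no scaling factor enters. In adipocyte controls the log2 ratio of *Abhd5* to *G0s2* per kilobase was -2.75, -2.56 and -2.49, and under butyrate it was -2.01, -2.01 and -1.91. In myotubes it went from -0.09, -0.02 and 0.14 to 2.02, 2.47 and 2.86. In hepatocytes it went from 0.87, 0.98 and 1.11 to 2.34, 3.02 and 2.32. The ratio thus rose 1.54-fold in adipocytes, 5.44-fold in myotubes and 2.98-fold in hepatocytes without overlap between the groups, although *Abhd5* itself fell in the first and rose in the others. In macrophages the ratio was 4.15, 3.78 and 4.15 in controls and 7.56, 5.41 and 4.15 under butyrate, so the lowest butyrate library was level with the highest controls. Under bOHB the ratio was 0.75, 0.74 and 0.38 in hepatocytes, below all their controls (0.778-fold), and overlapped the controls in the other cell types. This ratio was formed after the data were seen, and with 3 libraries against 3 an exact permutation test cannot go below p = 0.1, so no test is given.

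**Figure D5:**
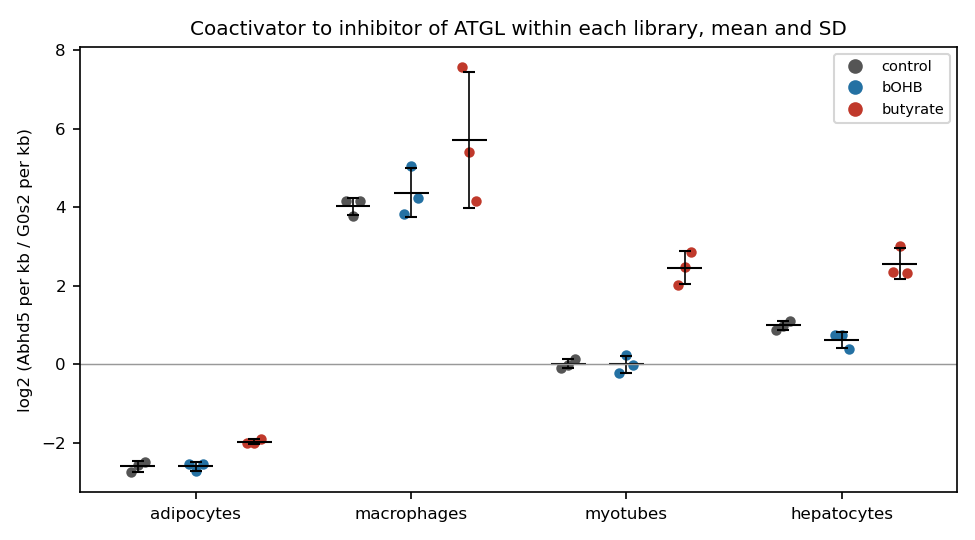
Log2 ratio of *Abhd5* to *G0s2*, each per kilobase of merged exons, in every library (points, 3 per group) with mean and SD. Adipocytes lie lowest, and butyrate libraries lie above their controls in adipocytes, myotubes and hepatocytes, while the macrophage butyrate libraries spread from 4.15 to 7.56.

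bOHB changed 0 of the 8 genes in adipocytes (edgeR's quasi-likelihood test, 0.00652% of all genes), 0 in macrophages (0% of all genes), 0 in myotubes (2.91%) and 0 in hepatocytes (0.00652%). limma-voom and DESeq2 also called 0 of 8 in each cell type. Of the 32 comparisons, 2 had an unadjusted p under 0.05, as did 7.15%, 2.33%, 13.7% and 5.51% of all genes in adipocytes, macrophages, myotubes and hepatocytes. *Adrb3* in adipocytes was at 328, 382 and 390 CPM under bOHB against 292, 356 and 328 CPM in controls (log2 fold change 0.17, 95% interval 0.03 to 0.32, adjusted p = 0.644), and these groups overlapped. *G0s2* in hepatocytes was at 5.78, 6.42 and 7.01 CPM against 5.58, 4.86 and 4.61 CPM (0.35, 0.02 to 0.68, adjusted p = 0.868), and these groups did not overlap. *Abhd5* in macrophages also had groups apart, at 63.9, 63.9 and 61.8 CPM against 66.8, 66.1 and 68.0 CPM (-0.08, -0.19 to 0.02, adjusted p = 1). For the well-expressed genes in adipocytes the intervals were narrow, at -0.14 to 0.17 for *Lipe*, -0.05 to 0.21 for *Pnpla2* and -0.05 to 0.15 for *Abhd5*. For *Adrb1* outside adipocytes they were wide, up to -1.98 to 3.35 in hepatocytes. *Adrb3* also had wide intervals in macrophages (-2.18 to 0.64), myotubes (-0.89 to 1.47) and hepatocytes (-0.1 to 1.06), as did *G0s2* in macrophages (-1.13 to 0.47). The values of these genes do not exclude a large change.

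The 100 genes of the 5 pathway lists, of which *Pde11a* was not tested, gave 0 calls under bOHB in adipocytes by edgeR, limma-voom and DESeq2. Of these genes, 5 had an unadjusted p under 0.05 in edgeR, where 7.15% of all genes did.

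Butyrate and bOHB differ by the hydroxyl group that bOHB carries, and they were given at the same dose and for the same time. This pair was compared in 4 cell types with p-values adjusted over all genes. In adipocytes 8 of 8 genes differed (59.5% of all genes), *Adrb3* most, at 39.5 ± 4.57 CPM under butyrate and 367 ± 34.2 CPM under bOHB (95% interval of the log2 difference -3.38 to -3.05, adjusted p = 2.65e-23). *Lipe* was at 439 ± 43.1 CPM under butyrate and 748 ± 62.2 CPM under bOHB (-0.93 to -0.61), and *G0s2* at 102 ± 5.37 and 224 ± 21.5 CPM (-1.33 to -0.95). *Mgll* lost the call with library totals alone (-0.12, adjusted p = 0.148). In macrophages 7 of 8 differed (64.7% of all genes), and *Adrb3* did not pass (0.10 to 2.62, adjusted p = 0.0609). *G0s2* passed with overlapping groups (-1.09, adjusted p = 0.048) and, among other refits, lost the call without butyrate replicate 1 (-0.62, adjusted p = 0.257) and without bOHB replicate 1 (-0.77, adjusted p = 0.243). With library totals alone 4 of 8 passed in macrophages, *Adrb3* among them (1.59, adjusted p = 0.0269), and *Adrb3* also passed without butyrate replicate 1 (adjusted p = 0.0351). When each cell type was filtered and fitted alone, which left out the members of low count, 5 differed in macrophages, 6 in myotubes and 6 in hepatocytes. In myotubes 7 of 8 differed (66.0% of all genes), and *Pnpla2* did not pass (0.01 to 0.29, adjusted p = 0.0524), although it did with limma-voom (adjusted p = 0.0339), DESeq2 (0.00286), RLE scaling (0.00854), library totals alone (1.05e-05) and the myotube libraries alone (0.00142). In hepatocytes 7 of 8 differed (63.5% of all genes), and *Mgll* did not pass (-0.01 to 0.37, adjusted p = 0.0887). *Mgll* passed with DESeq2 (adjusted p = 0.0426), library totals alone (0.00842), the hepatocyte libraries alone (0.0315) and without bOHB replicate 2 (0.00315). *Adrb3* lost the call with limma-voom (0.143), without bOHB replicate 2 (0.133) and without butyrate replicate 3 (0.0711), and *Pnpla2* with no filter (0.057) and without bOHB replicate 3 (0.125). These comparisons share the butyrate libraries with those against control.

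Over the 12 group means of log2 CPM, the genes whose pattern was most like that of a member were found by Pearson's r, as a description over groups that differ in cell type first of all. *Lipe* was nearest to *Abhd5* (r = 0.990), *Pnpla2* (0.983) and *Uck1* (0.980). *Abhd5* was nearest to *Lipe*, *Pofut2* (0.987) and *Derl1* (0.983). *Adrb3* was nearest to *Slc22a3* (0.991), *Serpina3c* (0.985) and *Arl1* (0.982), and *G0s2* to *Nrip1* (0.992), *Cox4i1* (0.986) and *Prex2* (0.985). *Pnpla2* was nearest to *C1qtnf7* (0.991), *Slc7a10* (0.990) and *Hspd1-ps4* (0.990), and *Pde3b* to *Zfp655* (0.991), *Hcar2* (0.982), which encodes the receptor for bOHB, and *Phf11d* (0.982). *Mgll* was nearest to *Ghitm* (0.984), *Fmo2* (0.983) and *Vldlr* (0.978). For *Adrb1* the values were lowest, with *Gm47163* (0.967), *1700020L24Rik* (0.960) and *Nfe2l3* (0.959).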

How the data were processed

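The members and gene lists were chosen with earlier results of these data known. The authors quantified reads with Salmon 1.2.1 against GENCODE M25 (GRCm38.p6) and deposited estimated counts per gene, summed by tximport, for 54347 genes in 36 libraries. The study's methods describe scaling by average transcript length and library size at this step. The library totals of the deposited table differ and many of its values are whole numbers, and whether that scaling entered them is not given in the sources used here, so they were analysed as unscaled estimates. The counts were made from BGISEQ-500 paired-end reads, and the strand setting is not given in the sources used here. One column, numbered 1 in its header, was listed with the unit other although the deposited values are estimated counts like the rest. The source label of the butyrate samples also carries the bOHB name, and the title and treatment labels set the groups. Symbols, positions and merged exon lengths came from GENCODE M21.

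Estimated counts were rounded to whole numbers. Genes above 1 CPM in at least 6 libraries (15340) were fitted with edgeR 4.0.16 (R 4.3.3, TMM, quasi-likelihood test, 12 group means over all 36 libraries), in 18 comparisons. P-values were adjusted by Benjamini-Hochberg over all genes tested, at a threshold of 0.05. The fit was tested on simulated data. Depth had a median of 22177562 counts. Ratios of few counts use library totals and exact 95% intervals, which cover counting error only. The labels name no batch. Replicates differed beyond sampling noise in all 36 pairs (chi-square per gene of 2.61 to 38.1). Besides the 8 members, the text names the 2 raised and 2 lowered genes of smallest adjusted p per list in adipocytes and the 3 genes nearest to each member. Other named genes were chosen after their values were seen. Alternatives were limma-voom 3.58.1, DESeq2 1.42.0, RLE scaling, library totals alone, other filters, only the cell types compared, the replicate block and leaving out each library.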

Additional observations from a re-analysis of the deposited data

Results flagged for a closer look

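The butyrate change differed between adipocytes and another cell type in 15 of the 17 differences tested, by edgeR's interaction contrast with Benjamini-Hochberg adjustment. Of all genes tested, 36.6% differed against macrophages, 36.8% against myotubes and 41.4% against hepatocytes. The 17 differences repeat the same genes and share the adipocyte libraries, so they are not separate results. The values are log2 changes in adipocytes minus those in the other cell type. Against macrophages the difference was -0.60 for *Pnpla2*, -0.45 for *Lipe*, 0.95 for *Mgll* and -0.68 for *Pde3b*. Against myotubes it was -0.53 for *Pnpla2*, -1.92 for *Lipe*, -0.77 for *Mgll*, -0.88 for *Abhd5*, 0.88 for *G0s2* and -1.93 for *Pde3b*. Against hepatocytes it was -0.52 for *Pnpla2*, -2.52 for *Lipe*, -0.63 for *Mgll*, -0.72 for *Abhd5* and -1.56 for *Pde3b*. In 11 of the 15 the gene passed the test in both cell types with opposite signs.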

How the results depend on the processing

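Of 1975 member values recomputed, 1932 kept their side of the threshold, of which 38 that were not called changed sign, 24 lost the call, 18 gained it and 1 reversed. With library totals alone, which moved the median of all genes under butyrate by 0.202 in macrophages and 0.133 in myotubes, the members changed by butyrate in macrophages went from 7 to 4, those differing between butyrate and bOHB there from 7 to 4, and *Abhd5* reversed to 0.02 in the latter comparison (adjusted p = 0.788). Leaving out 1 library at a time gave 8 to 8 members changed by butyrate in adipocytes and in myotubes, 5 to 7 in macrophages and 7 to 8 in hepatocytes, and 0 to 0 by bOHB in each cell type. It gave 8 to 8, 6 to 7, 7 to 8 and 6 to 7 members differing between butyrate and bOHB in adipocytes, macrophages, myotubes and hepatocytes. The differences between adipocytes and macrophages, myotubes and hepatocytes were 4 to 5, 6 to 6 and 5 to 5, and the control levels 8 to 8. With 1 library left out, 8717 to 8825 of all 15340 genes tested passed under butyrate in adipocytes. In the fit of adipocyte libraries alone, 8545 of 12684 did. The shares of all genes in the other refits are not given here. The fitted *Adrb1* change was 5.35 in myotubes and 5.57 in hepatocytes without control replicate 2. Same-numbered libraries correlated at -0.26 to 0.27. With 3 libraries per group this cannot show whether equal numbers stand for a shared culture or animal. With the replicate block, members differing between butyrate and bOHB were 6 in macrophages (*G0s2* adjusted p = 0.0506) and 8 in myotubes (*Pnpla2* adjusted p = 0.035), and the other counts of members called for butyrate, bOHB and the differences between cell types were the same. The control levels were not fitted with the block. Depth limits *Adrb1* and *Adrb3* outside adipocytes and *G0s2* in macrophages, each at under 100 counts in controls together.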

Other observations

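In myotubes, 7 of the 100 pathway list genes, of which *Pde11a* was not tested, passed the test under bOHB in edgeR, adjusted over all genes. Of all genes tested, 2.91% did. The 7 genes were named after their values were seen. *Fabp5*, a fatty acid binding protein, fell from 12.8 ± 1.96 to 7.24 ± 1.13 CPM (log2 fold change -0.82, adjusted p = 0.000125), and *Lipa*, the lysosomal lipase, fell from 52.0 ± 9.75 to 36.4 ± 3.13 CPM (-0.51, adjusted p = 0.00518). *Pde1a* (-0.76), *Lpl* (-0.58), *Cebpa* (-0.48) and *Pde8a* (-0.43) fell as well, and *Abhd6* rose from 9.63 ± 0.380 to 11.8 ± 0.219 CPM (0.30). limma-voom called 2 and DESeq2 8 of the 100. The 6 macrophage markers fell in the same libraries, among them *Csf1r* from 32.7 ± 16.2 to 9.27 ± 3.91 CPM and *Lyz2* from 115 ± 44.8 to 42.4 ± 20.7 CPM, and their part in these calls was not tested. When the myotube libraries were fitted alone, 0 of 12964 genes passed.

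Under butyrate the pathway lists moved in both directions in the other cell types too. The share of all genes that passed was 65.0% in macrophages, 66.5% in myotubes and 63.5% in hepatocytes. In macrophages, myotubes and hepatocytes in turn, 10, 13 and 11 of 29 signalling genes rose and 6, 5 and 8 fell. Of 16 phosphodiesterases, 4, 5 and 3 rose and 6, 6 and 5 fell. Of 27 lipolysis partners, 9, 11 and 14 rose and 9, 4 and 6 fell. Of 17 transcriptional regulators, 5, 9 and 6 rose and 8, 2 and 5 fell. Of 10 genes that cAMP is known to induce, 4, 6 and 6 rose and 3, 1 and 1 fell, with median log2 fold changes of -0.06, 0.71 and 0.70.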
